A study of Rattus norvegicus with 3 samples.

Results

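Chaperones and protein-folding enzymes were examined in the kidney inner medulla of rats with lithium-induced nephrogenic diabetes insipidus, as 38 genes of the 4390 named on the array. A gene was taken by its symbol in the array's public probe annotation. The rule took the Hspa, Hspb, Hspd, Hspe, Hsph, Hsp90, Dnaj, Pdia and Fkbp families and the Cct chaperonin subunits. It also took Ppia, Ppib, Ppid, Cryab, Calr, Canx, Stip1, Tcp1, P4hb and Hsf1. Cct subunits and Ppid were searched for but did not appear among the genes found. The genes fell into 7 small heat shock genes, 15 cytosolic genes, 11 genes of the endoplasmic reticulum (ER), 3 mitochondrial genes and 2 regulators or other genes. Each of 3 two-colour arrays set total RNA from rats treated with lithium for 1 month (red, channel 1) against RNA of control rats (green, channel 2). Arrays 1 and 2 carried pools of 2 rats per channel and array 3 carried 1 rat per channel, with different rats on each array. For strain, age, sex and lithium dose the sources used here give nothing.

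Chaperones hold or refold other proteins. In the cytosol, Hsp70 proteins and their J-domain partners bind unfolded chains and pass some of them to Hsp90 or to the ring-shaped chaperonin, while small heat shock proteins hold unfolded chains without using ATP. In the ER, the Hsp70 protein BiP, the sugar-binding calnexin and calreticulin, and the disulfide isomerases fold secreted and membrane proteins. The inner medulla is exposed to high salt and urea, and its cells are known for high levels of small heat shock proteins and other stress proteins.

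The values are log ratios with 2 decimals, each array centred on its own median, and their base was not stated. Ratios above 0 were read as higher with lithium, which is likely from the channel labels but is not stated in the table. Aqp2, which lithium is known to lower, stood at 0.17 ± 0.08 (SD, n = 3), so the direction stays in doubt for the chaperone genes too. With lithium always in red, dye and treatment cannot be told apart. Array 1 had values for 5582 of its 5760 probes, array 2 for 5682 and array 3 for 4287. Without spot intensities, precision is limited by there being 3 arrays. Across the 3819 features with a value on every array, arrays 1 and 2 correlated at r = 0.46, arrays 1 and 3 at 0.48 and arrays 2 and 3 at 0.16. Over the 34 chaperone genes among them the same values were 0.37, 0.69 and 0.26, as a description across genes of the same 3 arrays.

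No chaperone gene passed a limma adjusted p of 0.05 in lithium-treated inner medulla. That was 0 of 34 genes, where 0.445% of all tested features passed (17 of 3819). The gene nearest to the threshold was the small heat shock gene Hspb6, and the next was the ER lectin chaperone gene Canx. At an unadjusted limma p of 0.05, 4 of the 34 were higher (11.8%, against 9.71% of all features) and 3 were lower (8.82%, against 7.52%). The higher ones were Hspb7, Hspa2, Hsp90ab1 and Fkbp1b, and the lower ones were Hspb6, Canx and Tcp1. Both shares were close to the background. If the table instead holds control over lithium, higher and lower change places here and in every count below. The median 95% interval, not adjusted for the number of features, reached 0.10 to either side of a chaperone gene's mean ratio. Shifts much smaller than that were not detectable with 3 arrays. Larger ones could also miss the adjusted threshold, as Hspb6 with a mean of −0.24 and Canx with −0.15 did. The lack of calls therefore does not show that shifts of that size were absent.

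Most chaperone genes stayed near 0. The mean ratio lay within 0.1 of 0 for 26 of the 34, and 23.5% lay farther out, against 20.1% of all features. The 34 genes had a median ratio of −0.0050, with 16 above 0 and 18 below. All features had a median of 0.0133, with 2127 of 3819 above 0. A ratio above 0 on all 3 arrays was found for 8 genes (23.5%, against 24.1% of all features), and one below 0 on all 3 for 5 genes (14.7%, against 14.6%). These counts depend on the centring: with the ratios as deposited, 5 were above on all arrays and 9 below. The mean was then above 0 for 10 genes and below for 23, with a median of −0.0067 over all features. Hspb7, Fkbp1b and Ppia stayed above 0, and Hspb6, Canx, Tcp1 and Hspb1 below 0, on every array under each of 4 other scalings. The ratio's SD over arrays exceeded the size of its mean in 21 of the 34 genes.

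**Figure D1:**
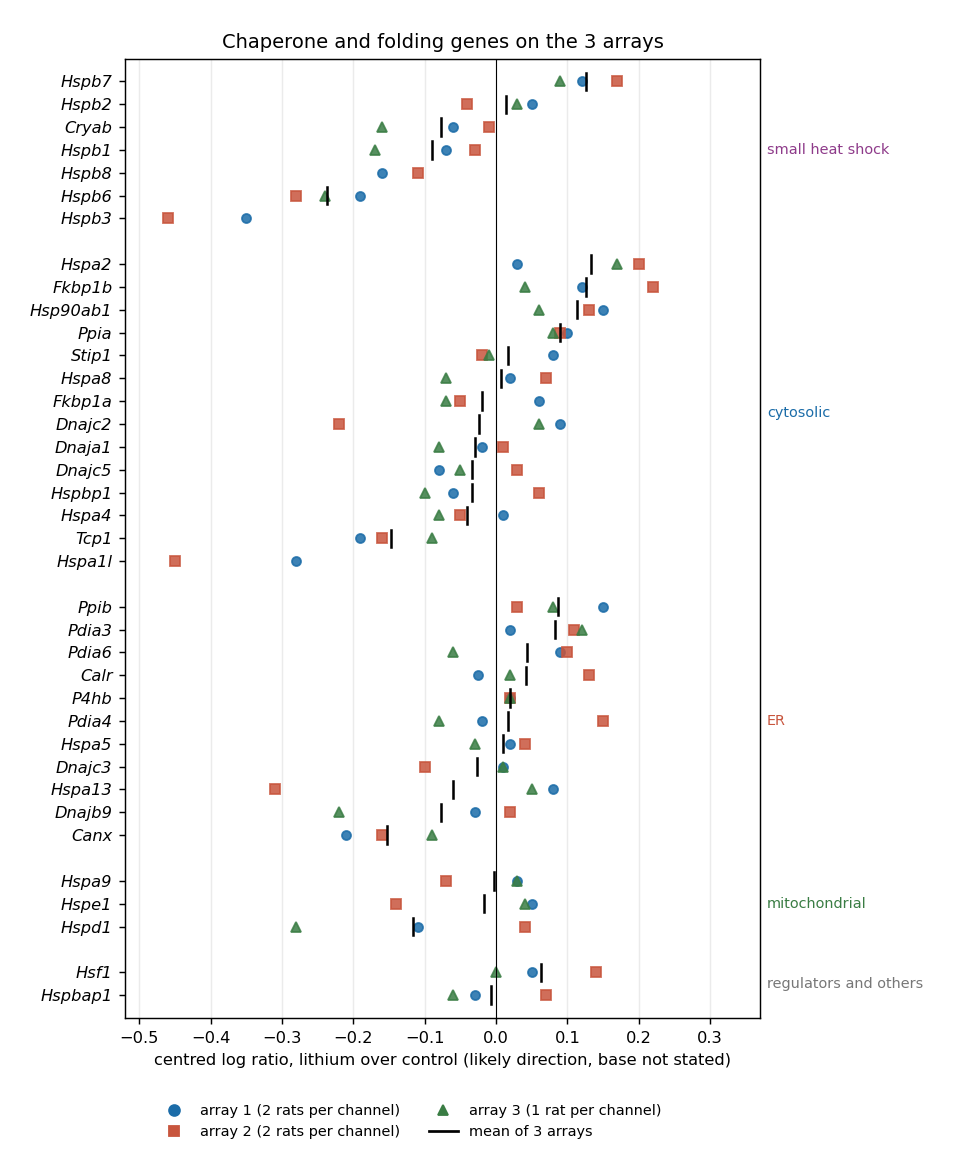
Centred log ratio (horizontal axis, base not stated) of the 37 chaperone genes with a value, grouped by class, with 1 symbol per array and a black bar at the mean of genes measured on 3 arrays. Hspb6 is left of 0 on every array (−0.19, −0.28 and −0.24) and Hspb7 right of it (0.12, 0.17 and 0.09), while most other genes straddle 0.

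The ER chaperones showed no common shift, and the folding lectin calnexin stood lowest among them. All 11 had values on the 3 arrays, 7 with a mean above 0 and 4 below, and their median ratio was 0.0167. Its array medians were 0.02, 0.03 and 0.01, beside 0.01, 0.04 and 0.00 for all features. With the ratios as deposited the ER median was −0.0033, so its sign rests on the centring.

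A motif is shared by 4 ER members, one through which ER stress is known to raise transcription, and their promoters are shown for that reason. The ER stress element was searched as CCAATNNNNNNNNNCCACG, and its reverse complement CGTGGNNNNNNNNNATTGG, from 250 bases before to 50 after each gene's start. RefSeq windows of rat assembly GRCr8 were matched for 31 of the 38 genes. The element was found in 4 of 9 ER windows and in none of the other classes, and in 0.0657% of all 33469 windows. The stretches below are printed 5′ to 3′ on the gene's strand, with the element in capitals. They lie at chr3:38452953-38453011 (plus strand, Hspa5), chr15:102432514-102432572 (plus, Dnajc3), chr19:40213117-40213173 (plus, Calr) and chr10:35158049-35158107 (minus, Canx). Counted from the gene's start, the element begins at −43 in Hspa5, −133 in Dnajc3, −232 in Calr, where it runs in reverse, and −230 in Canx. A match describes these letters and was not tested as a site.
Hspa5: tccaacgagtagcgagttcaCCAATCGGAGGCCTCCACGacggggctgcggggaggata
Dnajc3: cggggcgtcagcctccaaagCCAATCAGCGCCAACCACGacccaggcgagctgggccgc
Calr: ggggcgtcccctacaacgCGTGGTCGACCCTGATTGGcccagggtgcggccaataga
Canx: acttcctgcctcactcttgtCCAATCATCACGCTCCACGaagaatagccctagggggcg

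The 4 genes that carry this element did not share a direction. Hspa5, which encodes BiP, the ER's main Hsp70 and a standard readout of ER stress, had ratios of 0.02, 0.04 and −0.03 on arrays 1, 2 and 3. That is close to 0 on every array, with a mean of 0.01 ± 0.04 (SD, n = 3) and a limma adjusted p of 0.924. Its 95% interval ran from −0.08 to 0.10.

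Canx, calnexin, the membrane-bound chaperone that holds glycoproteins while they fold, had ratios of −0.21, −0.16 and −0.09. All 3 were below 0, and the mean of −0.15 ± 0.06 (limma adjusted p = 0.169) had only 4.01% of features below it. The fold is 0.703 if the base is 10 and 0.899 if it is 2, or 1.42 and 1.11 if the direction is turned. Calr, its soluble relative calreticulin, had ratios of −0.025, 0.13 and 0.02, on both sides of 0. It is the only chaperone gene with 2 probes here, and they differed in sign on arrays 1 and 3, at −0.10 and 0.05 on array 1. Dnajc3, a J-domain protein that restrains the stress kinase PERK, had ratios of 0.01, −0.10 and 0.01, with only array 2 below 0.

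The disulfide isomerases, which form and rearrange disulfide bonds in the ER, stood at or slightly above 0. Pdia3, the isomerase that works with calnexin and calreticulin, had ratios of 0.02, 0.11 and 0.12 and a mean of 0.08 ± 0.06 (limma adjusted p = 0.356). P4hb, which also serves as a subunit of collagen prolyl hydroxylase, had 0.02 on each array after centring. Pdia6 had 0.09, 0.10 and −0.06, and Pdia4 had −0.02, 0.15 and −0.08. The ER cyclophilin gene Ppib, whose product isomerises prolines in collagen and other secreted chains, had 0.15, 0.03 and 0.08, all above 0 (mean 0.09 ± 0.06, adjusted p = 0.349). With the ratios as deposited, Ppib, Pdia3 and P4hb no longer had a ratio above 0 on every array.

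Another 2 ER genes were set apart by a single array. Hspa13, an Hsp70-like ATPase of microsomes, had ratios of 0.08, −0.31 and 0.05, the widest range among the genes with 3 values (0.39). Dnajb9, a J-domain partner of BiP, had −0.03, 0.02 and −0.22. The low array was array 2 for Hspa13 and array 3 for Dnajb9, and neither gene passed the test.

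The cytosolic chaperone genes lay on both sides of 0. Of 15 genes 13 had values on the 3 arrays, 6 with a mean above 0 and 7 below, with a median of −0.02. The Hsp70 and Hsp90 genes had a median of 0.06 over 4 genes, the J-domain and other co-chaperones −0.03 over 5, and the prolyl isomerases 0.09 over 3. The Hsp70 gene Hspa1l, with −0.28 and −0.45 on arrays 1 and 2 and no value on array 3, is not in the first of these medians. These medians describe small sets and were not tested.

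Hspa2, an Hsp70 protein known above all from testis, had ratios of 0.03, 0.20 and 0.17. They were above 0 on all arrays, though low on array 1, with a mean of 0.13 ± 0.09 (SD, n = 3, limma adjusted p = 0.223). Hsp90ab1, the constitutive cytosolic Hsp90 that holds steroid receptors and kinases, had 0.15, 0.13 and 0.06 (mean 0.11 ± 0.05, adjusted p = 0.230). Both genes had mixed signs when each printing block of the array was centred on its own. Hspa8, the constitutive Hsp70 that most cells use, had 0.02, 0.07 and −0.07 and so lay on either side of 0 (mean 0.0067 ± 0.0709, adjusted p = 0.954). Hspa4, an Hsp110-type exchange factor for Hsp70, had 0.01, −0.05 and −0.08 (mean −0.04 ± 0.05, adjusted p = 0.657). A probe for Hspa8, Hsp90ab1 or Ppia may also bind transcripts of near-identical copies, so these assignments are uncertain.

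Among the co-chaperones, Stip1, the adaptor that joins Hsp70 to Hsp90, had ratios of 0.08, −0.02 and −0.01. Dnaja1, a J-domain partner of Hsp70, had −0.02, 0.01 and −0.08. Neither gene kept 1 sign. Dnajc5, the cysteine string protein of secretory vesicles, and Hspbp1, an exchange factor for Hsp70, both had means of −0.03. Dnajc2, a ribosome-bound J-domain protein, had 0.09, −0.22 and 0.06, low only on array 2. Dnaja2, another partner of Hsp70, had no value on any array.

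Tcp1, the alpha subunit of the cytosolic chaperonin that folds actin and tubulin, had the lowest mean among the cytosolic genes measured 3 times. Its ratios were −0.19, −0.16 and −0.09, all below 0, with a mean of −0.15 ± 0.05 (adjusted p = 0.172) and a 95% interval from −0.24 to −0.05. It was the only subunit of the cytosolic chaperonin in the set. The cyclophilin A gene Ppia, a cytosolic prolyl isomerase, had nearly equal ratios of 0.10, 0.09 and 0.08 (mean 0.09 ± 0.01, adjusted p = 0.293). Fkbp1b, which binds calcium release channels, had 0.12, 0.22 and 0.04, and Fkbp1a, the FK506-binding protein of most tissues, had 0.06, −0.05 and −0.07. The first was above 0 on every array (mean 0.13 ± 0.09, adjusted p = 0.239), and the second was not.

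**Figure D2:**
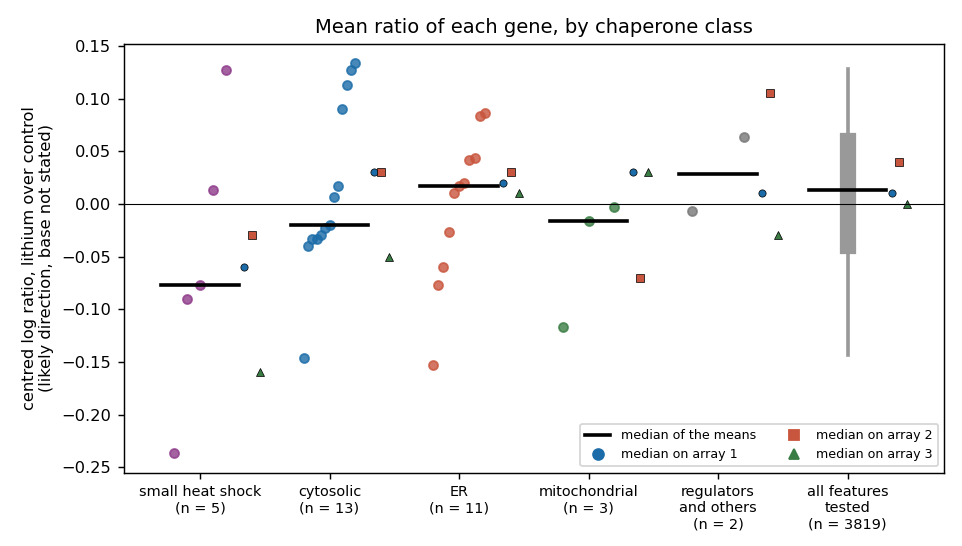
Mean centred log ratio over the 3 arrays (vertical axis, base not stated), with 1 point per gene in each chaperone class and a black bar at the median of the means; small symbols give the class median on each array. For all 3819 features the thick grey bar spans the middle 50% and the thin one the 5th to 95th percentile, from −0.14 to 0.13, a range that holds 30 of the 34 chaperone genes.

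Heat shock factor drives chaperone genes through alternating GAA and TTC units, and its own gene is in the set. Hsf1 had ratios of 0.05, 0.14 and 0.00, none below 0 (mean 0.06 ± 0.07, SD, n = 3, limma adjusted p = 0.495). Hspbap1, which encodes a protein that binds Hspb1, had −0.03, 0.07 and −0.06. The heat shock element was searched as GAANNTTCNNGAA and TTCNNGAANNTTC, each the reverse complement of the other, and overlapping matches were joined. It was found in the windows of 4 genes (Hspa8, Dnaja1, Hspd1 and Hspe1) out of 31, and in 0.798% of all windows. Shown are the match nearest to the start of Hspa8, at chr8:50080439-50080491 on the plus strand, and the match before Hspe1, at chr9:64084242-64084299 on the plus strand, with the element in capitals.
Hspa8: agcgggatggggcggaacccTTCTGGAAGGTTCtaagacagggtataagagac
Hspe1: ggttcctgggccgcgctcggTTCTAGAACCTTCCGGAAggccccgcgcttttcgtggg

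The mitochondrial chaperonin genes share the second of these promoters. Hspd1 (Hsp60, the ring) and Hspe1 (Hsp10, its lid) lie head to head, their windows overlap by 211 bases on opposite strands, and both hold the element printed above. Hspd1 had ratios of −0.11, 0.04 and −0.28, with array 2 above 0 and array 3 lowest (mean −0.12 ± 0.16, SD, n = 3, limma adjusted p = 0.381). Hspe1 had 0.05, −0.14 and 0.04, so it was above 0 where its partner was below and below where its partner was above (mean −0.0167 ± 0.1069, adjusted p = 0.897). Hspa9, the mitochondrial Hsp70 that pulls in imported proteins, had 0.03, −0.07 and 0.03. None of the 3 genes kept 1 sign.

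The small heat shock genes had the lowest median of the classes, and also one of the highest single genes. Of 7 genes 5 had values on the 3 arrays, 3 below 0 and 2 above, with a median ratio of −0.08. The class median was −0.06, −0.03 and −0.16 on arrays 1, 2 and 3, beside 0.01, 0.04 and 0.00 for all features. With 5 genes the median of the means is the value of 1 gene, Cryab, and no test was made of it.

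Hspb6, known as Hsp20 and abundant in smooth and heart muscle, had ratios of −0.19, −0.28 and −0.24. The 3 arrays lay within 0.09 of each other and all below 0, with a mean of −0.24 ± 0.05 (SD, n = 3) and a 95% interval from −0.33 to −0.14. The fold is 0.58 if the base is 10 and 0.849 if it is 2, or 1.72 and 1.18 if the direction is turned. By p it ranked 29 among the 3819 features, only 1.13% of which had a lower mean, and its limma adjusted p was 0.0797. Hspb6 passed after equalising the spread of the arrays (adjusted p = 0.0240), with a robust prior (0.0182) and with array weights (0.00226). Those settings called 91, 94 and 1055 of the 3819 features, against 17 in the main fit. With no prior the adjusted p of Hspb6 was 0.397. With an array left out its adjusted p was 0.742, 0.295 and 0.408 without array 1, 2 and 3, and its mean stayed between −0.26 and −0.215.

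Smooth muscle markers had means near 0, beside −0.24 for Hspb6, but some lay far from 0 on single arrays. Of 9 such genes 6 were measured on the 3 arrays, with means from −0.05 (Tagln) to 0.04 (Acta2) and a median of −0.0217, and 5 of the 6 had mixed signs. The widest spread was that of Des, at 0.04, −0.38 and 0.21, and Tagln had −0.15, 0.13 and −0.13. Only ratios were deposited, so neither the level of these markers nor the cells that express Hspb6 can be given. In whole tissue, fewer cells of a type and less RNA per cell cannot be told apart.

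Hspb7, a small heat shock protein known from heart and skeletal muscle, was on the other side of 0 from Hspb6. Its ratios of 0.12, 0.17 and 0.09 were all above 0 (mean 0.13 ± 0.04, SD, n = 3, limma adjusted p = 0.187). Hspb2, a muscle-associated member, had 0.05, −0.04 and 0.03 and did not keep a sign.

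Hspb1 and Cryab, whose products join in the same large oligomers and bind damaged filaments, had nearly the same ratio on each array. Hspb1 (Hsp27) had −0.07, −0.03 and −0.17, with a mean of −0.09 ± 0.07 (adjusted p = 0.349). Cryab (alpha B-crystallin) had −0.06, −0.01 and −0.16, with a mean of −0.08 ± 0.08 (adjusted p = 0.412). Cryab minus Hspb1 was 0.01, 0.02 and 0.01, a pair picked after the values were seen. Cryab no longer had 1 sign when printing blocks were centred on their own. Both genes were lowest on array 3, the array of 1 rat per channel. On that array the thin limb marker Aqp1 stood at −0.26 and the thick limb marker Umod at −0.39, also the lowest of their 3 values. The thin limb list had a median of −0.16 there, with 2 of its 3 measured genes below 0, and −0.10 and −0.07 on arrays 1 and 2. The thick limb list had a median of −0.115 on array 3, also with 2 of 3 below 0, and −0.01 and 0.025 on arrays 1 and 2. Its other gene, Kcnj1, was above 0 on every array, at 0.32, 0.22 and 0.0733. The part of limb tissue in these ratios was not tested.

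Values on arrays 1 and 2 only were held by 3 genes, which stood well below 0 there. Hspb3, a small heat shock gene of muscle, had −0.35 and −0.46, and Hspa1l, an Hsp70 gene known from testis, had −0.28 and −0.45. Hspb8, which works with Bag3 in clearing misfolded proteins, had −0.16 and −0.11. In a limma fit of the 4930 features with at least 2 values, which called 0 of 37 chaperone genes and 0.811% of all features, their adjusted p-values were 0.0732, 0.0981 and 0.248 (n = 2 each). At an unadjusted limma p of 0.05 that fit held 9 of the 37 (24.3%), close to the 20.1% of all features. A probe for Hspa1l may also bind the inducible Hsp70 transcripts Hspa1a and Hspa1b, so its assignment is uncertain.

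Probes that are empty on array 3 read low on the other arrays in general. Their medians were −0.08 on array 1 and −0.18 on array 2, against 0.01 and 0.04 for probes with a value on array 3. Of the 1293 probes with values on arrays 1 and 2 only, 5.49% were at or below Hspb3 on both arrays, 7.27% at or below Hspa1l and 29.7% at or below Hspb8. Of the chaperone probes with values on arrays 1 and 2, 3 of 38 (7.89%) were empty on array 3, against 23.3% of all such probes. The cause of the low readings was not tested.

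**Figure D3:**
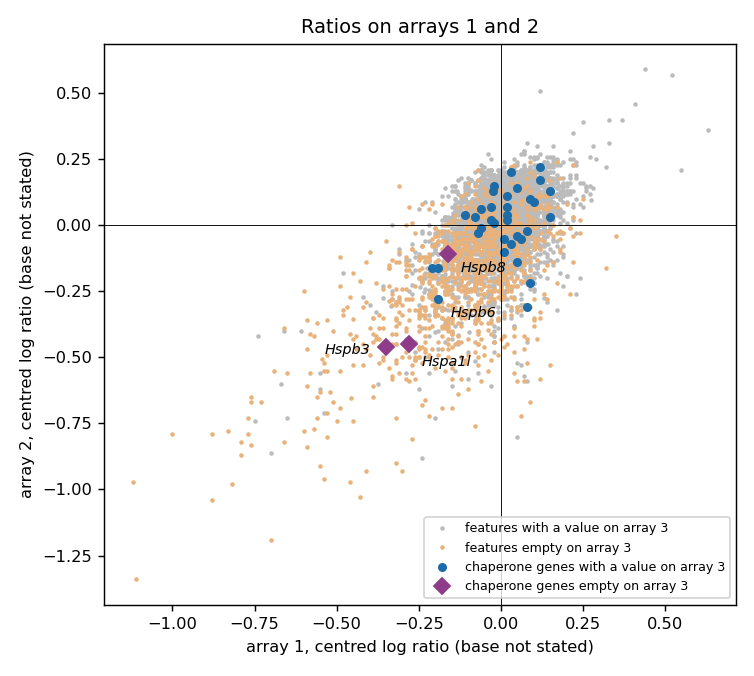
Centred log ratio on array 1 (horizontal axis) against array 2 (vertical axis), base not stated, for features with a value on array 3 (grey) or empty there (orange), with the chaperone genes in blue or, where empty on array 3, as purple diamonds. Hspb3 (−0.35 and −0.46) and Hspa1l (−0.28 and −0.45) lie within the lower left tail, where features empty on array 3 are frequent.

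Partner genes were set side by side within each array, which removes any shift that a whole array shares. The 9 pairs were chosen with the values known, and 3 arrays allow no exact two-sided p under 0.25, so the differences are descriptions. Hspb6 minus Hspb7 was −0.31, −0.45 and −0.33, the widest separation and below 0 on every array. Canx minus Calr was −0.185, −0.29 and −0.11, and Fkbp1b minus Fkbp1a was 0.06, 0.27 and 0.11. Hspa2 minus Hspa8 was 0.01, 0.13 and 0.24, close to 0 on array 1. Hspd1 minus Hspe1 had both signs, at −0.16, 0.18 and −0.32. The cyclophilin difference Ppib minus Ppia was 0.05, −0.06 and 0.00, and Cryab minus Hspb2 was −0.11, 0.03 and −0.19. For Pdia3 minus Pdia4 the values were 0.04, −0.04 and 0.20.

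**Figure D4:**
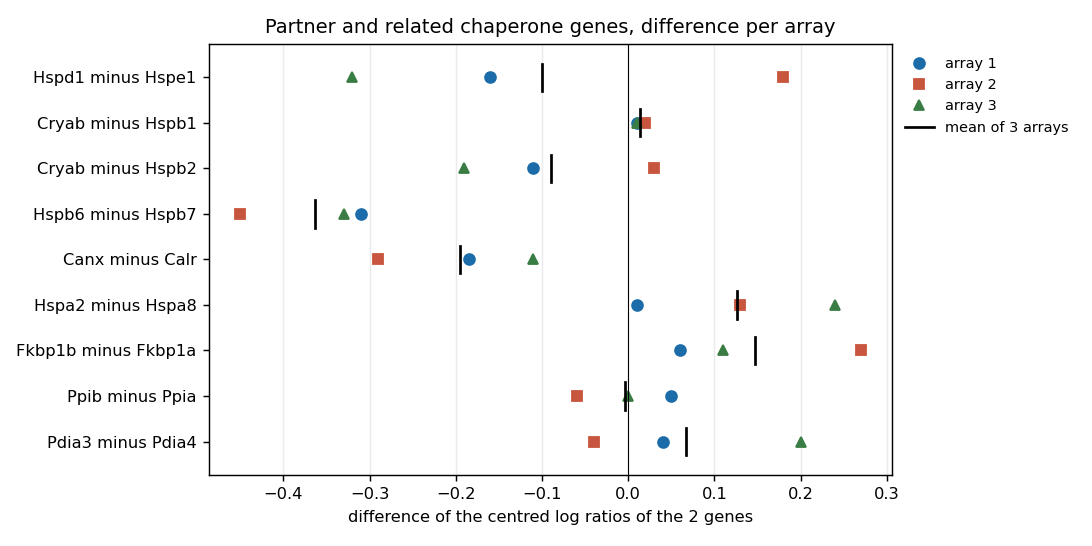
Difference between the centred log ratios of 2 related genes on each array (horizontal axis), 1 row per pair and 1 symbol per array, with a black bar at the mean. Hspb6 minus Hspb7 and Canx minus Calr are left of 0 on all arrays, while Hspd1 minus Hspe1 runs from −0.32 to 0.18.

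Genes that act around the chaperones did not pass either, in any of 5 lists. With 0.445% of all tested features past the threshold, lists this small would hold few or no calls in any case. Of 28 genes of the unfolded protein response and ER degradation 14 were tested, with a median of −0.0017 and 0 called. The stress kinase gene Eif2ak3 (PERK) had ratios of 0.07, 0.13 and 0.10 (mean 0.10 ± 0.03, SD, n = 3, limma adjusted p = 0.257). The pseudokinase gene Trib3 had −0.22, −0.06 and −0.07 (adjusted p = 0.267) and the transcription factor gene Atf4 had 0.19, 0.24 and −0.03 (adjusted p = 0.2997). Xbp1 and Ddit3, transcription factors of the same response, stood at 0.06 ± 0.05 and −0.06 ± 0.04. They were named after the values were seen.

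Of 23 genes of ER translocation and signal processing 7 were tested, 6 of them with a mean above 0, and none passed. Over all tested features, 2127 of 3819 had a mean above 0. Rpn1, a subunit of the oligosaccharyl transferase, had 0.11 on each array (adjusted p = 0.216), Sec61a1, the pore of the translocon, had 0.11, 0.15 and 0.02, and Dad1, another transferase subunit, had −0.02, −0.03 and 0.15. Of 21 partners of Hsp90 and Hsp70 outside the rule 7 were tested and none passed. Bag6, a holdase for membrane proteins, had 0.17, 0.14 and 0.06 (mean 0.12 ± 0.06, adjusted p = 0.214), Ppp5c, a phosphatase bound to Hsp90, had 0.06, 0.06 and 0.10, and Grpel1, the exchange factor of the mitochondrial Hsp70, had 0.03, −0.19 and 0.00. Steroid receptors, clients of Hsp90, had 4 of 5 genes tested. The glucocorticoid receptor gene Nr3c1 stood at 0.05 ± 0.07, the estrogen receptor gene Esr1 at 0.04 ± 0.02, and the progesterone receptor gene Pgr at −0.11 ± 0.10. None of these was near the threshold.

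Hypertonicity genes, the other stress set of this tissue, had 5 of 8 tested and 0 called. Akr1b1, aldose reductase, which makes sorbitol, had ratios of −0.31, −0.28 and −0.21 (mean −0.27 ± 0.05, SD, n = 3, limma adjusted p = 0.0616), close in size to Hspb6. Slc38a2, an amino acid transporter, had 0.13, 0.07 and 0.21, and the urea transporter gene Slc14a2 averaged 0.10 ± 0.03. Akr1b1 alone of the 5 had a mean below 0. The principal cell markers all had means above 0 (8 of 8, median 0.15, with Hsd11b2 past the threshold), where 2127 of all 3819 features did. Aqp3 was barely above, at −0.02, 0.06 and −0.02 (mean 0.0067). The medians subtracted from arrays 1, 2 and 3 were −0.02, −0.04 and 0, so the sign of Aqp3 and the count of 8 rest on the centring. The thin limb markers Aqp1 and Bst1 stood at −0.19 and −0.11, and Slc14a2, also on that list, at 0.10. For the other cell types the median ratio was 0.02 over 2 intercalated cell genes, −0.03 over 3 thick limb, 0.08 over 6 proximal tubule, 0.05 over 3 endothelial, 0.03 over 5 leukocyte and 0.09 over 2 red cell genes. The part of a change in cell makeup in the chaperone ratios was not tested.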

How the data were processed

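Each of the 3 arrays compared lithium and control inner medulla directly, so they formed 1 group and the mean ratio against 0 was the comparison. The deposited values are log ratios per probe. The log base, direction, scanner, background correction, normalization and spot filter are not given in the sources used here, and the test statistics do not depend on the base. Probes were named from the platform annotation (5064 of 5760 with 1 symbol), and all 38 members matched a current rat gene ID.

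Each array's median over all probes was subtracted, and probes of 1 gene ID were averaged per array. The 3819 features with 3 values entered a fit in limma 3.58.1 (R 4.3.3; intercept-only lmFit, eBayes, two-sided, Benjamini-Hochberg over all features, adjusted p of 0.05). The fit was tested on simulated data. No gene-set test was run. Centring, scaling, feature choice, error model and left-out arrays were varied. Tables were made with pandas 2.3.3 and numpy 2.4.6 under Python 3.11.15, and figures with matplotlib 3.10.9.

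The rule for named members takes those past the threshold, the 4 with the smallest p per class, and fixed well-known chaperones where measured. From related lists it takes up to 3 genes. Members, classes and lists were chosen with earlier results of these data known, and the pairs after the values were seen. The labels give each array different rats, so the spread between arrays holds differences between animals or pools. It also holds technical noise, which cannot be told apart from them here. Pools and the unpooled array had equal weight in the main fit. The p-values rest on this spread only in part. The limma prior, estimated from all tested features, carried 5.15 degrees of freedom, against 2 from a gene's own arrays.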

Additional observations from a re-analysis of the deposited data

How the results depend on the processing

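The count of chaperone genes past a limma adjusted p of 0.05 was 0 and was also 0 without centring, with 2 other centrings, with features on at least 2 arrays, with single probes, with no prior and with any 1 array left out. It was 1 (Hspb6) after equalising the spread of the arrays, with a robust prior, or at an adjusted p of 0.1. With array weights it was 9, when 1055 of all 3819 features were called and array 1 had a weight of 4.52 against 0.371 and 0.596 for arrays 2 and 3. The count over all features was 17, and became 91 with scaling, 94 with a robust prior, 49 at an adjusted p of 0.1, 40 with features on at least 2 arrays, 11 with single probes and 0 with no prior. With any 1 array left out it was 0, while an unadjusted p under 0.05 was held by 172 features without array 1, 606 without array 2 and 445 without array 3. The chaperone genes among these numbered 2, 3 and 6. With no prior 442 features had such a p. The median ratio of the ER genes was 0.0167. It was −0.0033 without centring, 0 when centred on features of all 3 arrays, −0.01 when centred within printing blocks, and between 0.01 and 0.03 with an array left out. Over the 5 classes 46 of 50 such values moved by less than the SD of the class median between arrays, and the 4 that moved farther were all of the ER class. The ER class had the smallest SD of the 5, at 0.01, so small moves counted there. The small heat shock median went from −0.077 to −0.035 without array 3 and still counted as unmoved, with an SD of 0.068. The SD was larger than the size of the median itself for the cytosolic (0.046, median −0.02) and mitochondrial classes (0.058, −0.017) and for regulators and others (0.069, 0.028). There, a median with its sign turned could still count as unmoved. Without array 2 the mitochondrial median was 0.03 and that of regulators and others −0.01, and without array 3 the cytosolic one was 0.005, each with its sign turned. Among 25 named chaperone genes, the sign of the mean turned in 21 of 299 alternatives, in 8 genes that were not past the threshold. The cause of these differences was not tested. The deposited ratios carry no brightness, so signal over background is unknown.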
